A study of Mus musculus with 4 samples.

Results

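The genes of Wnt signalling that act at or outside the cell surface were examined for promoter histone H3 trimethylated at lysine 4 (H3K4me3) in mouse cerebral cortex. They were the 19 Wnt ligands, the 12 receptors (the 10 frizzled genes Fzd1 to Fzd10 and the co-receptor genes Lrp5 and Lrp6) and the 9 secreted inhibitors (Dkk1 to Dkk4, Sfrp1, Sfrp2, Sfrp4, Sfrp5, and Frzb, which is also called Sfrp3). They were chosen by symbol alone, as 40 of 21938 protein-coding genes of the mm10 annotation.

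Chromatin immunoprecipitation with an H3K4me3 antibody followed by sequencing was applied to left cerebral cortex. The mice were B6CASTF1/J females at 2 months of age, for which no treatment is named. They come from a cross of the inbred strains C57BL/6J and CAST/EiJ. Pool J, numbered biological replicate 1, and pool I, numbered biological replicate 2, each combined 4 biosamples and gave 2 libraries, for 4 libraries in all. The same donor was recorded for every library, and since nothing shows that the biosamples were separate animals, differences between the pools may be technical. Peaks were available as a list for pool J (21573 peaks), a list for pool I (24508 peaks) and a replicated list for both pools (25446 peaks), while the read depth behind them was unknown.

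Wnt proteins are secreted, lipid-modified ligands that bind frizzled receptors. With the co-receptors Lrp5 and Lrp6 they stabilise beta-catenin, and without these co-receptors frizzled receptors can pass signals to the cytoskeleton. Sfrp proteins carry a frizzled-like domain and bind Wnt ligands outside the cell, whereas Dkk1 blocks Lrp5 and Lrp6. In the brain the pathway patterns the embryonic cortex and hippocampus, directs the growth of blood vessels and takes part in synapse formation. H3K4me3 is the mark of nucleosomes at the starts of active genes and of genes held ready for transcription, many of them in DNA rich in CG dinucleotides, and is not itself a measure of transcript level.

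A promoter was called marked where a peak overlapped the 1000 bases on either side of any annotated transcript start. Peaks up to 1000 bases apart were joined into a domain, and the width given is that of the widest domain at a promoter. Enrichment is the highest fold value that the authors assigned to a promoter peak. Of the 40 genes, 33 were marked in the replicated list (82.5%), beside 65.2% of all protein-coding genes. In pool J 33 were marked, beside 63.9% of all genes, and in pool I 32 were marked, beside 64.8% of all genes. The shares of all genes, here and for each class below, are not matched for promoter CG content, which is described further below. In bulk tissue a mark carried by fewer cells and less of the mark per cell cannot be told apart.

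The promoter sequences that the contrasts below turn on are given first, from RefSeq on GRCm38.p6, with 250 bases before and 50 bases after the start. Capitals mark CG dinucleotides, which read the same on both strands. At least 1 CG was held by 94.6% of the 32851 RefSeq promoters, and the median was 7 with quartiles of 3 and 20. The table held promoters for 26 of the 40 genes. Wnt9a and Wnt3a are neighbours that differed in their mark. So did Wnt10b and Wnt1 in the replicated list, where Wnt10b had only a weak peak, outside its printed window. Wnt8b is an unmarked ligand whose 6 CG lay just below the median of 7. Fzd4 had the highest enrichment and Fzd5 the widest domain among the receptors, and Sfrp2 and Sfrp5 are a marked and an unmarked inhibitor.
Wnt9a: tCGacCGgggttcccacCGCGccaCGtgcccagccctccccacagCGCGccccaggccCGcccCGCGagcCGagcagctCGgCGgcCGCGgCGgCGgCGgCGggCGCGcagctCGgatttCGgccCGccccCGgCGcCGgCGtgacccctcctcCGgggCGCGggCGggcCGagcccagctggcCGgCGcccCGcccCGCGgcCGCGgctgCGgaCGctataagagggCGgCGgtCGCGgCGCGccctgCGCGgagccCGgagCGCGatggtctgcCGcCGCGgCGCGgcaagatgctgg
Wnt3a: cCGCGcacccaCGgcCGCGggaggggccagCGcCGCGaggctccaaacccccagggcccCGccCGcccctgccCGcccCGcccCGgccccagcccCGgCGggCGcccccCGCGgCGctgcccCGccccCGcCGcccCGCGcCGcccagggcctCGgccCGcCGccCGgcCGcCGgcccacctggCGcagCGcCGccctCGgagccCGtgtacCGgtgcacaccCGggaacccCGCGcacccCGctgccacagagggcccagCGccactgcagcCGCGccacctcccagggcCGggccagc
Wnt10b: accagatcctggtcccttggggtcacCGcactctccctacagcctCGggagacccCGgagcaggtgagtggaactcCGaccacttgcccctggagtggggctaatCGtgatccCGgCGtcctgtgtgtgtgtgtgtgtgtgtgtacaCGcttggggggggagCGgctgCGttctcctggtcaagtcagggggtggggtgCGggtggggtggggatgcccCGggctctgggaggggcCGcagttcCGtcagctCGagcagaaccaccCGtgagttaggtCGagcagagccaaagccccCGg
Wnt1: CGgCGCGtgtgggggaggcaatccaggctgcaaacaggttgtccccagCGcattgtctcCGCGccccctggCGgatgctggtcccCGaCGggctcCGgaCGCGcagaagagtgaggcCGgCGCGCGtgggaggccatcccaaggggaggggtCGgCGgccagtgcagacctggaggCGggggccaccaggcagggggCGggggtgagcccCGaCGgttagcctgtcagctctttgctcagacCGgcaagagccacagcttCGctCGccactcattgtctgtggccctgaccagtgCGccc
Wnt8b: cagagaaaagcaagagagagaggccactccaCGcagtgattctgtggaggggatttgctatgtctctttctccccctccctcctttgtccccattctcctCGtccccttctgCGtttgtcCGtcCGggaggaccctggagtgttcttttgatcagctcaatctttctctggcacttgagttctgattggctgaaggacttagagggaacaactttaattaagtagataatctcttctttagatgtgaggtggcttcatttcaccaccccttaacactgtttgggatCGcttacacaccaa
Fzd4: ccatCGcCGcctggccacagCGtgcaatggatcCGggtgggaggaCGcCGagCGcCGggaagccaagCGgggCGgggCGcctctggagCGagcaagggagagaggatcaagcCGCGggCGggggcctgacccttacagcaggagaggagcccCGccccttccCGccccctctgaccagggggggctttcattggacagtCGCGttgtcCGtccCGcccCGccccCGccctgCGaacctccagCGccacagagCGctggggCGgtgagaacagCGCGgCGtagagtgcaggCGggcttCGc
Fzd5: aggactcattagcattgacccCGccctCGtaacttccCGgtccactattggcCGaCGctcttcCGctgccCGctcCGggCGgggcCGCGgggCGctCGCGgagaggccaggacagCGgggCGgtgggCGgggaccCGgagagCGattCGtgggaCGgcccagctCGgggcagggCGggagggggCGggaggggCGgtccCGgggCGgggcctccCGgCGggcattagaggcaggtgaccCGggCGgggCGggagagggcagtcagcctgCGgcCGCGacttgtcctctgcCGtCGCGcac
Sfrp2: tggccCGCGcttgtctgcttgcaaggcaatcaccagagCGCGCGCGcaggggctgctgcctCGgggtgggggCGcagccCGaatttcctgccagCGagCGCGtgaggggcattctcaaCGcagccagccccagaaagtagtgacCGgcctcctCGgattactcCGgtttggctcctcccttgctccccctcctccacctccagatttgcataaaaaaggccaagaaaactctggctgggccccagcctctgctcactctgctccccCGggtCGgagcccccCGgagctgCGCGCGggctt
Sfrp5: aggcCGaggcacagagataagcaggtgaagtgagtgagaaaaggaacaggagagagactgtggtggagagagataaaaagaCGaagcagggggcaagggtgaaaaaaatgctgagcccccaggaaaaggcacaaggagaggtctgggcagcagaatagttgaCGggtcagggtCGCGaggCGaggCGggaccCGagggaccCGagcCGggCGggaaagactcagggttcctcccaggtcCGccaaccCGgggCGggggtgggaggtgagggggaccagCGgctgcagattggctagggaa

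These windows lay on the strand of each gene. That of Wnt9a (chr11:59306680-59306979, plus strand) held 58 CG, more than 99.9% of the table's promoters. The window of the unmarked Wnt3a (chr11:59290702-59291001, minus strand) held 45 CG, more than 98.1%. Wnt10b (chr15:98778101-98778400, minus strand) had 18 CG and its unmarked neighbour Wnt1 (chr15:98789607-98789906, plus strand) had 26 CG. Both neighbour pairs thus contain an unmarked gene with a window richer in CG than the table median. The replicated Wnt10b peak (chr15:98777855-98778080) had a −log10 q of 1.28 and lay outside the printed window of Wnt10b. Neither printed window of that pair thus held a replicated peak. Wnt8b (chr19:44493222-44493521, plus strand) had 6 CG. Among the receptors, Fzd4 (chr7:89404116-89404415, plus strand) had 32 CG and Fzd5 (chr1:64737701-64738000, minus strand) had 38 CG. Sfrp2 (chr3:83766071-83766370, plus strand) had 22 CG and Sfrp5 (chr19:42202203-42202502, minus strand) had 15 CG.

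Of the ligands, 15 of 19 were marked in the replicated list (78.9%). Pool J gave 15 and pool I gave 14. Wnt1, Wnt3a, Wnt8a and Wnt8b had no promoter peak in any of the 3 lists. Marked ligands had a median domain of 1875 bases (226 to 3913) and a median enrichment of 11.9-fold (2.52 to 17.1). Over all 14293 marked protein-coding genes the medians were 2124 bases and 20.8-fold. The median ligand stood at percentile 39.7 of width and percentile 16.9 of enrichment among marked genes. Thus 7 of 15 ligands were wider than the median marked gene and 0 of 15 exceeded it in enrichment.

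The highest enrichment among the ligands was that of Wnt4, which acts in kidney and female reproductive tract development. Its domain (chr4:137276545-137279054) measured 2510 bases at 17.1-fold in the replicated list, 2373 bases at 16.9-fold in pool J and 2674 bases at 16.9-fold in pool I. Wnt5b, a ligand related to Wnt5a, followed with 14.4-fold, 15.5-fold in pool J and 12.9-fold in pool I. The Wnt5b domain was shorter than that of Wnt4 in each list, at 1364 bases, 1211 bases in pool J and 1457 bases in pool I. In the replicated list the ligand second in enrichment was thus narrower than the median ligand.

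Wnt9a, a ligand known from joint development, had the widest replicated domain of the ligands, chr11:59305753-59309665. It measured 3913 bases at 13.3-fold, 3982 bases at 14.96-fold in pool J and 3945 bases at 13.2-fold in pool I. The mean of the pools was 3963.5 ± 26.2 bases (SD, n = 2). Wnt5a, the classic ligand of beta-catenin-independent signalling, was next with 3510 bases at 12.8-fold. Its width differed most between the pools of all members, 3342 bases at 13.2-fold in pool J and 7534 bases at 12.7-fold in pool I. The mean width was 5438 ± 2964 bases (SD, n = 2). In pool I the domain (chr14:28504177-28511710) joined a further promoter peak of 7.81-fold, at the gene's starts from 28510618 onwards. Pool J had a peak of 6.67-fold at those starts, outside its domain (chr14:28504359-28507700). The width of Wnt5a thus depended on whether this further peak was joined.

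Wnt7a and Wnt7b, which direct the growth of brain blood vessels and the formation of the blood-brain barrier, had similar domains. Wnt7a had 2239 bases at 11.9-fold, 2177 bases at 9.82-fold in pool J and 2322 bases at 12.8-fold in pool I. Wnt7b had 2283 bases at 12.3-fold, 2257 bases at 12.4-fold in pool J and 2356 bases at 11.97-fold in pool I. Its highest promoter peak was another one, of 2033 bases at 13.8-fold (chr15:85580227-85582259) and of 2001 bases at 14.6-fold in pool J, around other starts of the gene. In the other members the highest promoter peak lay in the widest domain in each list. In width each pool placed Wnt7b slightly above Wnt7a, but the order in enrichment was not the same in the lists of both pools. Wnt2, which acts in lung development, was of the same size, with 2297 bases at 13.1-fold, 2321 bases at 11.1-fold in pool J and 2293 bases at 14.9-fold in pool I. Its domain lay mainly before the start, with 1639 bases upstream and 657 bases downstream. Wnt11, a ligand of cell movements in vertebrate embryos, had 1875 bases at 12.5-fold, 1778 bases at 10.3-fold in pool J and 1898 bases at 13.7-fold in pool I.

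A second set of ligands had lower values. Wnt10a, required for tooth development, had 2261 bases at 8.64-fold in the replicated list, 1289 bases at 9.40-fold in pool J and 1478 bases at 9.47-fold in pool I. Its linked partner Wnt6 had 1371 bases at 5.96-fold, 826 bases at 7.22-fold in pool J and 825 bases at 6.08-fold in pool I. For both genes the replicated domain joined 2 peaks and was wider than in either pool. Wnt9b, which induces kidney tubules, had 976 bases at 7.96-fold, 684 bases at 6.95-fold in pool J and 971 bases at 8.64-fold in pool I. Wnt2b had 804 bases at 7.22-fold, 973 bases at 6.27-fold in pool J and 803 bases at 7.60-fold in pool I.

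The lowest enrichments were those of Wnt16, Wnt3 and Wnt10b. Wnt16, known for its role in bone, had 1218 bases at 4.26-fold, 1195 bases at 4.54-fold in pool J and 1225 bases at 3.61-fold in pool I. Wnt3, which is required for gastrulation, had 717 bases at 3.35-fold, 352 bases at 3.35-fold in pool J and 760 bases at 3.56-fold in pool I. Wnt10b, a regulator of bone and fat cell formation, had 226 bases at 2.52-fold in the replicated list (chr15:98777855-98778080). The promoter peak in pool J was a different one, 351 bases at 3.03-fold (chr15:98776300-98776650), with 1204 bases between them, and pool I had none. The replicated peak of Wnt10b was thus in neither pool list. These 3 genes no longer counted as marked when a −log10 q of at least 10 was required. That left 12 of 19 ligands, a share near the 62.3% of all protein-coding genes.

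**Figure D1:**
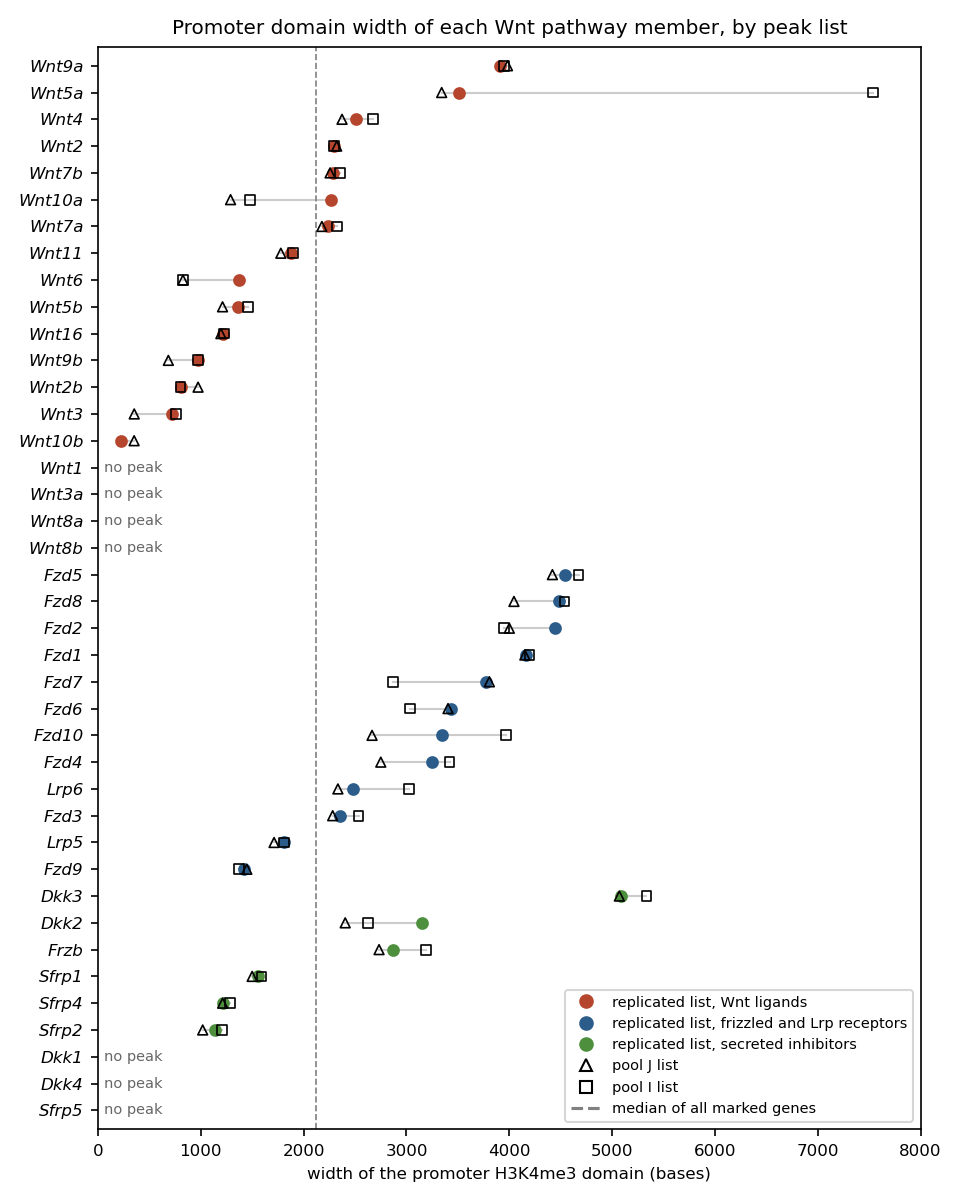
Width in bases of the promoter H3K4me3 domain for each of the 40 genes, with ligands, receptors and inhibitors from top to bottom; filled circles are the replicated list, triangles pool J and squares pool I, and the dashed line is the median of all marked genes at 2124 bases. Of the receptors 10 of 12 lie right of the line, against 7 of 15 marked ligands, and the 7 genes with no peak are written as such.

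All 12 receptors were marked in each of the 3 lists, also where the −log10 q had to reach 10. Of all protein-coding genes 65.2% were marked in the replicated list, and 62.3% where the −log10 q had to reach 10. Their median domain was 3387.5 bases (1420 to 4542) and their median enrichment 14.7-fold (8.85 to 27.2). In width the median receptor stood at percentile 81.7 of marked genes, and in enrichment at percentile 24.1. At the median, receptor promoters were thus wide and low in enrichment, with 10 of 12 wider than the median marked gene and 3 of 12 above its enrichment. Fzd2, Fzd5, Fzd6, Fzd7, Fzd8, Fzd10 and Lrp6 were both wider and less enriched than the median marked gene.

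Fzd4, the receptor through which norrin as well as Wnt ligands act on retinal and brain vessels, had the highest enrichment of all 40 genes. Its domain (chr7:89403164-89406410) had 3247 bases at 27.2-fold, 2750 bases at 25.3-fold in pool J and 3419 bases at 27.6-fold in pool I. The domain also covered a start of Tmem135, so its marks cannot be assigned to Fzd4 alone. No other member shared its domain with the start of another protein-coding gene. Fzd1 had 4166 bases at 24.9-fold, 4151 bases at 24.3-fold in pool J and 4197 bases at 23.7-fold in pool I. Fzd3, which guides axons in the brain, had 2357 bases at 23.6-fold, 2282 bases at 22.9-fold in pool J and 2534 bases at 22.8-fold in pool I. These 3 frizzled genes were the only members above the median enrichment of marked genes in the replicated list.

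The co-receptor genes were narrower and more enriched than most frizzled genes. Lrp5, known for its effect on bone mass, had 1806 bases at 20.0-fold, 1712 bases at 20.8-fold in pool J and 1810 bases at 18.4-fold in pool I. Lrp6 had 2481 bases at 20.0-fold, 2333 bases at 14.7-fold in pool J and 3027 bases at 21.6-fold in pool I. In the replicated list the pair shared an enrichment of 20.0-fold. The median domain was 2143.5 bases at 20.0-fold for Lrp5 and Lrp6 and 3604.5 bases at 13.99-fold for the 10 frizzled genes.

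The widest receptor domain was that of Fzd5, which acts in eye development, at chr1:64734596-64739137. It had 4542 bases at 14.01-fold, 4419 bases at 13.4-fold in pool J and 4673 bases at 13.8-fold in pool I. Fzd8, a close relative of Fzd5, had 4487 bases at 11.5-fold, 4045 bases at 13.98-fold in pool J and 4537 bases at 12.8-fold in pool I. With Fzd2, at 4444 bases and 8.85-fold, 4000 bases and 9.69-fold in pool J and 3945 bases and 7.98-fold in pool I, these genes paired wide domains with enrichment far below the median marked gene. Fzd2 had the lowest enrichment of any receptor in each list.

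Fzd7 had 3778 bases at 15.3-fold, 3806 bases at 15.1-fold in pool J and 2865 bases at 16.3-fold in pool I. Fzd6, which orients hair follicles with other planar polarity genes, had 3431 bases at 13.96-fold, 3404 bases at 12.6-fold in pool J and 3035 bases at 15.01-fold in pool I. For both genes pool J gave the wider domain. Fzd10 had 3344 bases at 13.1-fold, 2665 bases at 12.4-fold in pool J and 3965 bases at 13.1-fold in pool I. It reached 2373 bases upstream and 970 bases downstream of its start, and the domain held the start of the noncoding gene 5930412G12Rik. Starts of other genes that are not protein-coding also lay in the domains of Fzd5 (Gm38058), Fzd6 (Gm26704) and Wnt7a (Gm30437). Fzd9 was the narrowest receptor, with 1420 bases at 10.3-fold, 1447 bases at 10.3-fold in pool J and 1374 bases at 11.04-fold in pool I.

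Several frizzled genes consist of a single exon, so that a wide promoter domain takes in much of the gene. Fzd1, Fzd2, Fzd7, Fzd8, Fzd9 and Fzd10 had 1 merged exon each, and their domains covered 29.9% to 86.5% of the gene with a median of 52.8%. Over the 483 marked protein-coding genes with 1 merged exon the median was 72.7%. Coverage was highest in Fzd2 at 86.5% and Fzd1 at 77.1%, and lowest in Fzd10, whose domain lay mostly upstream.

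**Figure D2:**
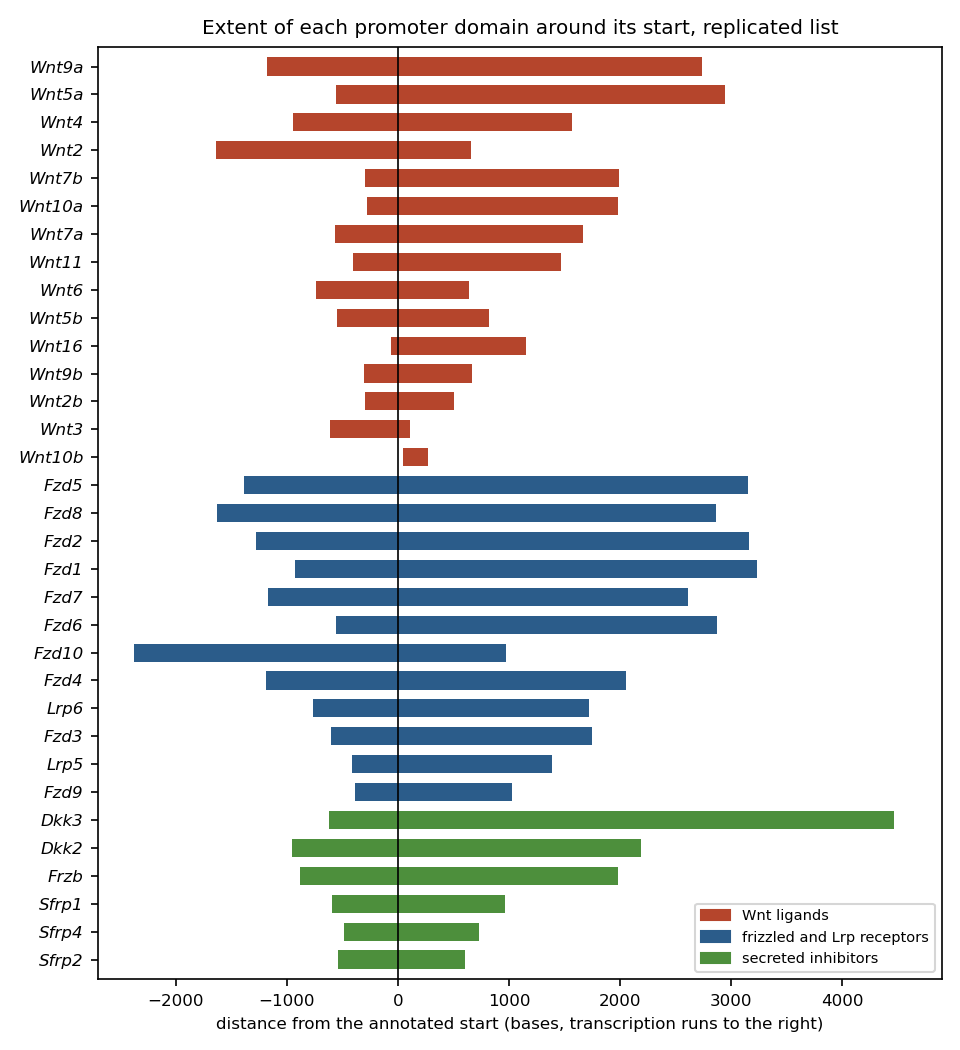
Extent of the replicated promoter domain of the 33 marked genes in bases before (negative) and after the annotated start nearest the domain's highest summit, with ligands, receptors and inhibitors from top to bottom and the gaps inside a joined domain drawn filled. Most bars reach further downstream than upstream; those of Wnt2, Wnt3, Wnt6 and Fzd10 reach further upstream, and that of Wnt10b begins after the start.

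Of the secreted inhibitors, 6 of 9 (66.7%) were marked in the replicated list and in both pools, a share near the 65.2% of all protein-coding genes, and Dkk1, Dkk4 and Sfrp5 had no promoter peak in these lists. The marked inhibitors had a median domain of 2211.5 bases (1140 to 5086) and a median enrichment of 10.4-fold (6.83 to 13.5). The median inhibitor stood at percentile 49.4 of width and percentile 13.9 of enrichment. Thus 3 of 6 were wider than the median marked gene and 0 of 6 exceeded its enrichment.

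Dkk3, a divergent Dkk family member, had the widest replicated domain of all 40 genes, chr7:112154588-112159673. It had 5086 bases at 13.5-fold, 5070 bases at 11.5-fold in pool J and 5333 bases at 15.01-fold in pool I, a mean of 5201.5 ± 186 bases (SD, n = 2). It reached 4469 bases downstream of the start and stood at percentile 94.8 of width. Dkk2 had 3146 bases at 6.83-fold, 2404 bases at 6.41-fold in pool J and 2627 bases at 6.88-fold in pool I, the lowest enrichment of the marked inhibitors in each list. The marked Dkk genes were thus both wide, yet modestly enriched.

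The Sfrp genes, whose products bind Wnt ligands, differed in width. Frzb had 2864 bases at 11.5-fold, 2733 bases at 15.8-fold in pool J and 3190 bases at 18.1-fold in pool I. Sfrp1 had 1559 bases at 8.66-fold, 1499 bases at 10.3-fold in pool J and 1589 bases at 8.0-fold in pool I. Sfrp4 had 1217 bases at 9.89-fold, 1212 bases at 9.47-fold in pool J and 1285 bases at 10.03-fold in pool I. Sfrp1, Sfrp2 and Sfrp4 were the 3 narrowest inhibitors in the replicated list. Sfrp2 had 1140 bases at 10.9-fold, 1018 bases at 9.69-fold in pool J and 1203 bases at 11.97-fold in pool I.

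The 7 unmarked genes differed in what lay around them. Wnt8b, a ligand of the embryonic medial forebrain, had its nearest replicated peak 1111 bases from a start, inside its own gene. For Wnt1, known for midbrain patterning, the nearest peak lay 2539 bases away, also inside the gene. The nearest peak to a start of Wnt3a, which is required for the growth of the hippocampus, lay 15001 bases away and was part of the Wnt9a domain. For Dkk1, the inhibitor of Lrp5 and Lrp6, the distance was 9696 bases. The distances were 26700 bases for Dkk4, 30238 bases for Sfrp5 and 30281 bases for Wnt8a, with the nearest peaks at Polb, Zfyve27 and Nme5. Of the unmarked genes only Wnt1 and Wnt8b therefore had their nearest peak inside the gene itself.

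Receptors had wider promoter domains than ligands at the median, 1875 bases for ligands and 3387.5 bases for receptors, with a smaller offset in enrichment, 11.9-fold for ligands and 14.7-fold for receptors. In pool J the median widths were 1289 bases for ligands and 3077 bases for receptors, beside 2026 bases for all marked genes, and the median enrichments were 9.82-fold for ligands and 14.4-fold for receptors. In pool I the widths were 1688 bases for ligands and 3227 bases for receptors, beside 2193.5 bases for all marked genes, and the enrichments 12.3-fold for ligands and 15.7-fold for receptors. The ranges of both classes overlapped. Of 15 marked ligands 7 were narrower than the narrowest receptor, and 4 of 12 receptors were wider than the widest ligand. In enrichment 7 ligands lay below every receptor and 5 receptors lay above every ligand. No test was made between the classes, since each pool gave 1 list and genes are not replicates.

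Both sides of the start contributed to the width of the receptor domains. The median reach upstream was 546 bases for ligands and 1048.5 bases for receptors, beside 746 bases for all marked genes. Downstream it was 1155 bases for ligands and 2332.5 bases for receptors, beside 1212 bases for all marked genes. Inhibitors reached 602.5 bases upstream and 1474.5 bases downstream at the median.

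The pools differed about as much in the widths of these genes as in those of all genes. The wider pool exceeded the narrower 1.10-fold at the median over the 32 genes marked in both pools, beside 1.09-fold over 13961 protein-coding genes. The ratio was above 1.5 for Wnt5a and Wnt3, 6.25% of members, beside 4.78% of all genes. For Wnt3 the pools gave a mean of 556 ± 288.5 bases (SD, n = 2).

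**Figure D3:**
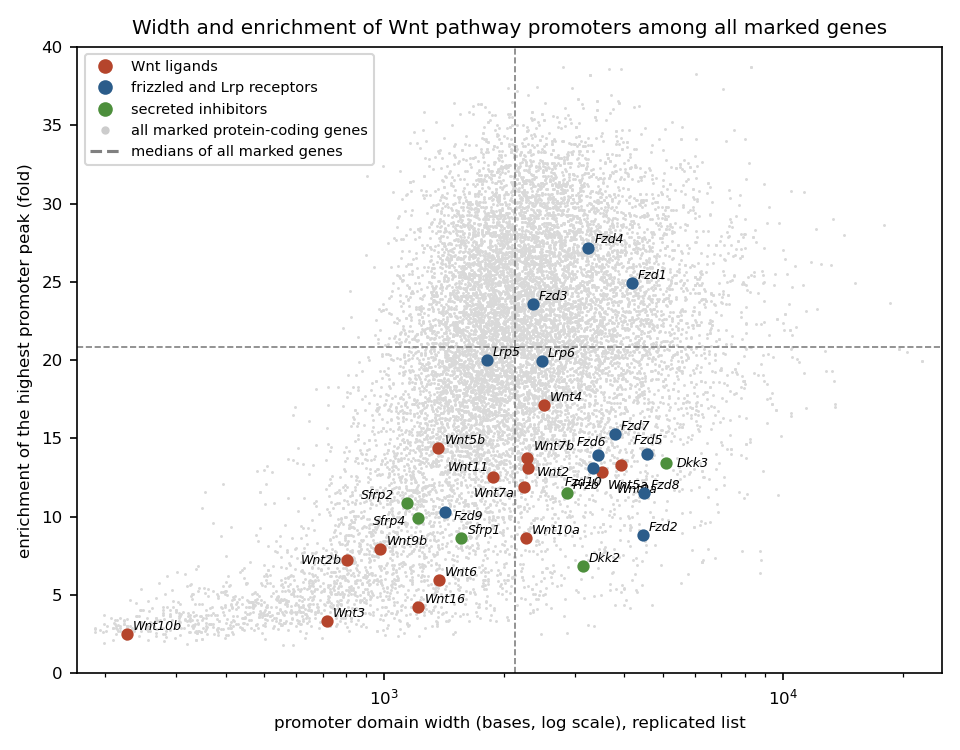
Enrichment (fold, y axis) against promoter domain width (bases, log scale, x axis) in the replicated list for the 33 marked genes, coloured by class, over all 14293 marked protein-coding genes in grey, with dashed lines at the medians of 2124 bases and 20.8-fold. Ligands and inhibitors lie wholly below the line of median enrichment, and only Fzd1, Fzd3 and Fzd4 lie above it.

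The CG content of the promoters differed between the classes. The median observed-to-expected CpG ratio, taken over 1000 bases on either side of the 5′-most start, was 0.616 for ligands, 0.736 for receptors and 0.483 for inhibitors, beside 0.474 for all protein-coding genes. Over all protein-coding genes, the share marked was 47.2% in the fourth decile of this ratio and 98.7% in the tenth. All 3 members in the fourth decile (Wnt8a, Wnt8b and Dkk4) were unmarked, and all 9 members in the tenth were marked. None of the members lay in deciles 1 to 3, where 3.83% to 23.0% of genes were marked. Deciles 6 to 10 held 4, 7, 7, 5 and 9 members, with 3, 6, 6, 5 and 9 of them marked. Of all genes in those deciles 92.9% to 98.7% were marked. All 12 receptors lay in deciles 7 to 10. The share of all protein-coding genes is thus a low comparison for most of these promoters. The part of the CpG ratio in the difference between ligands and receptors was not tested.

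Within their own decile the members still had low enrichment. None of the 15 marked ligands and none of the 6 marked inhibitors reached the median enrichment of marked genes of its decile, a count of 0 in both classes, and 2 of 12 receptors (Fzd1 and Fzd4) did. In width, 6 of 15 ligands, 8 of 12 receptors and 3 of 6 inhibitors exceeded the median of their decile. Wnt3a was unmarked at a ratio of 0.660, in a decile where 97.6% of protein-coding genes were marked. The other 6 members of that decile (Wnt3, Wnt7a, Wnt7b, Wnt9b, Fzd6 and Sfrp2) were marked, at 3.35-fold to 13.96-fold, where the median of the decile was 22.7-fold. Sfrp5 was unmarked at 0.610 and Wnt1 at 0.480, in deciles with 96.4% and 92.9% of genes marked.

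**Figure D4:**
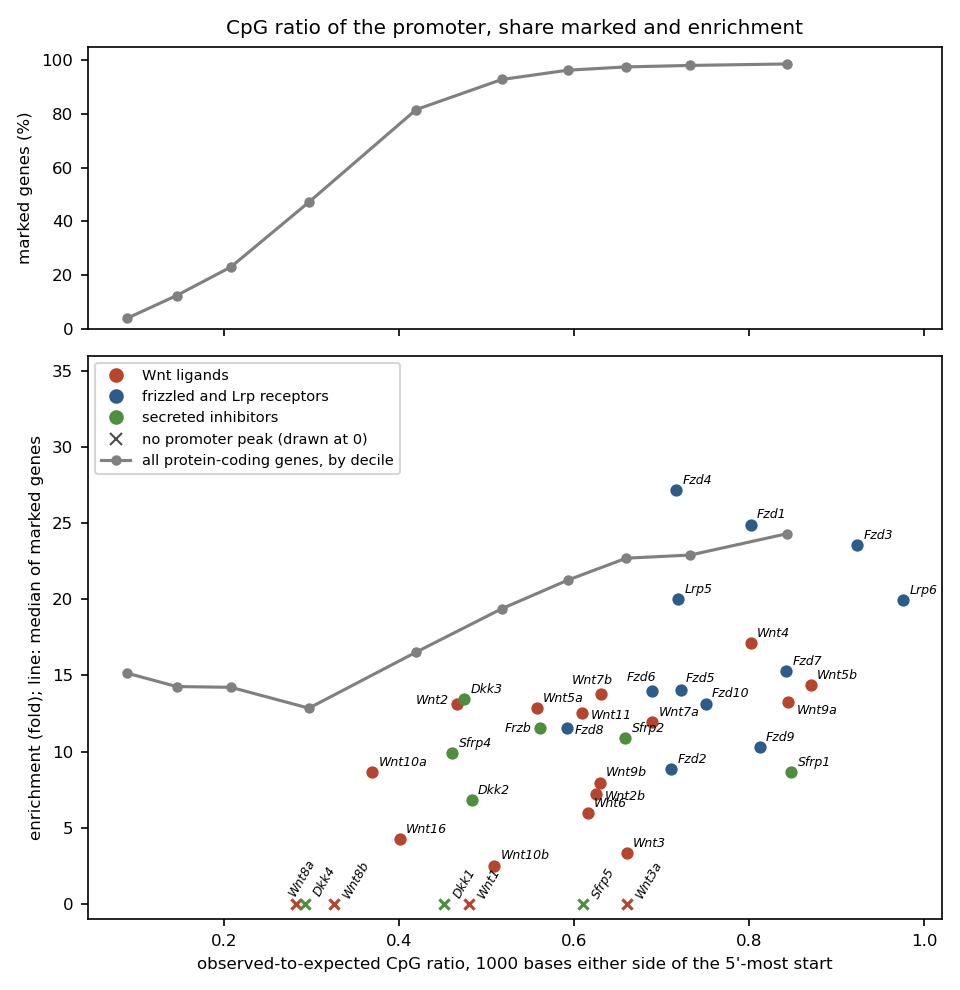
Upper panel, share of protein-coding genes with a marked promoter (%) by decile of the observed-to-expected CpG ratio; lower panel, enrichment (fold) of each of the 40 genes against its own ratio, with crosses at 0 for genes without a promoter peak and the grey line for the median of all marked genes by decile. All marked ligands and inhibitors lie below the grey line, and Wnt3a and Sfrp5 are unmarked at ratios of 0.660 and 0.610.

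Ligand genes also carried peaks inside the gene, outside the windows around the starts. Of the 19 ligands 8 held a replicated peak in the gene more than 1000 bases from every annotated start of any gene (42.1%), beside 13.0% of all protein-coding genes. The shares were 42.1% of ligands and 9.20% of all genes in pool J, and 47.4% of ligands and 12.1% of all genes in pool I. For receptors the count was 3 of 12 (Fzd1, Fzd2 and Fzd7) and for inhibitors 1 of 9 (Dkk2) in the replicated list. In these receptors and Dkk2 the peak was the downstream end of the joined promoter domain and so also entered its width. The location of these peaks was examined after their presence had been seen.

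In several ligands the peak within the gene was the stronger one. Wnt3 had an intronic peak of 1504 bases at 12.5-fold (chr11:103809127-103810630), which lay 34977 bases from the start, whereas its promoter peak had 3.35-fold. In Wnt10b the last exon held a peak of 770 bases at 7.02-fold (chr15:98772368-98773137), against 2.52-fold at the promoter. In Wnt6 the last exon held 740 bases at 8.34-fold (chr1:74783946-74784685), against 5.96-fold at the promoter. That Wnt6 peak lay 1507 bases from another annotated start of the gene, and a window of 2500 bases made it a promoter peak. These 3 genes made up 20.0% of the 15 marked ligands, beside 0.826% of all marked protein-coding genes with a stronger peak inside the gene. All 3 peaks were called in both pools. Counted in pool J the shares were 20.0% of marked ligands and 0.613% of all marked genes, and in pool I 14.3% of marked ligands and 0.851% of all marked genes, where Wnt10b dropped out for want of a promoter peak.

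Of the 4 unmarked ligands 3 held such a peak, beside 4.45% of the 7645 unmarked protein-coding genes. Wnt1 had 803 bases at 5.50-fold in its last exon (chr15:98792396-98793198), and Wnt8b had 697 bases at 5.94-fold in its last exon (chr19:44511432-44512128). The Wnt8b peak lay 1111 bases from another annotated start of the gene, and a window of 2500 bases made it a promoter peak. Wnt3a had an intronic peak of 597 bases at 7.40-fold (chr11:59263963-59264559), 26193 bases from the nearest start. All of these were present in both pools. The summit lay in the last exon for 5 of 10 such peaks in ligand genes, those of Wnt1, Wnt6, Wnt8b, Wnt10a and Wnt10b, beside 7.67% of 4344 such peaks in all protein-coding genes with more than 1 exon. The CpG ratio of the DNA under these last-exon peaks was 0.862 in Wnt1, 0.907 in Wnt6, 0.826 in Wnt8b, 0.685 in Wnt10a and 0.619 in Wnt10b. Under the other such peaks it was 0.817 in Wnt3, 0.832 in Wnt3a, 0.533 in exon 3 of Wnt10a, and 0.388 and 0.304 in Wnt5b.

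Some ligand genes lie side by side in old, conserved pairs. Wnt10a and Wnt6, whose nearest starts are 9077 bases apart on the same strand, were both marked, at 8.64-fold and 5.96-fold. That nearest start of Wnt6 (chr1:74782439) had no promoter peak, and the Wnt6 mark lay at its other start, 74771892, further from Wnt10a. Wnt9b and Wnt3 point away from each other, 24329 bases apart, and had 7.96-fold and 3.35-fold. In the other pairs 1 partner was unmarked. Wnt9a had 13.3-fold, and Wnt3a, 16176 bases away, had no promoter peak. Wnt10b had 2.52-fold, and Wnt1, 11707 bases away, had none. In each of the 4 pairs the members of the group Wnt9a, Wnt9b, Wnt10a and Wnt10b had the higher promoter enrichment, which held in both pools except that neither Wnt10b nor Wnt1 was marked in pool I.

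Ligands, receptors and inhibitors were marked in 33 of 40 cases in the replicated list (82.5%), against 67 of 70 further pathway genes in 6 lists (95.7%). The share of all protein-coding genes was 65.2%. All 15 genes of the destruction complex and its transducers were marked, with a median of 3312 bases at 23.4-fold. The widest was the kinase gene Gsk3b with 8047 bases at 31.6-fold, followed by the scaffold gene Apc2 with 6862 bases at 21.9-fold. All 13 nuclear partners were marked at a median of 2970 bases and 22.5-fold, led by the co-repressor genes Tle3 with 6209 bases and Tle1 with 5516 bases. All 11 genes of the planar polarity branch were marked at 2861 bases and 23.9-fold, led by Prickle1 with 6274 bases at 32.7-fold and Prickle2 with 4687 bases at 23.9-fold. Celsr1 of that branch had no promoter peak in pool J. These 3 lists, of which the last also holds the membrane proteins of the Vangl and Celsr genes, had medians above that of all marked genes in both measures. Ligands, receptors and inhibitors had medians below it in enrichment.

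The other 3 lists, of secreted modulators, receptors with their regulators, and secretion genes, had lower medians in enrichment, though single genes did not. Other secreted modulators were marked in 8 of 10 cases, with a median of 1614.5 bases at 9.25-fold, and Sost and Cer1 were unmarked. Their widest domains were those of Apcdd1 with 3471 bases at 16.1-fold and Igfbp4 with 3296 bases at 18.1-fold. Other receptors and receptor regulators were marked in 17 of 18 cases at 2218 bases and 14.4-fold, with the R-spondin gene Rspo4 unmarked and Kremen1, Lgr4 and Reck at 27.0-fold, 25.8-fold and 24.2-fold. There the widest were Rspo3 with 3803 bases at 13.2-fold and Znrf3, a ligase that removes frizzled receptors, with 2906 bases at 13.4-fold. In the same list Kremen2 had no promoter peak in pool J and Lgr6 had none in pool I, so each pool marked 16 of 18. The 3 secretion genes were all marked, at a median of 2412 bases and 13.4-fold. They were Wls, which carries Wnt ligands to the surface, with 2799 bases, Porcn, which attaches their lipid, with 1953 bases, and Notum, which removes it, with 2412 bases.

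Other signalling families gave the same order of the medians. Wnt ligands had 11.9-fold and Wnt receptors 14.7-fold, FGF and TGF-beta family ligands 12.6-fold and their receptors 20.2-fold, and semaphorins 17.2-fold and their plexin and neuropilin receptors 19.7-fold. The FGF and TGF-beta set was taken by symbol, not by whether a product signals as a ligand, and holds Fgf11 to Fgf14 and Inha. Of these, Fgf12, Fgf14 and Inha had 26.4-fold, 23.0-fold and 24.8-fold, and Fgf11 and Fgf13 had 11.3-fold and 13.4-fold. The median widths were 2224 bases for FGF and TGF-beta family ligands and 3246 bases for their receptors, and 2646 bases for semaphorins and 4710.5 bases for plexins and neuropilins. Marked were 35 of 55 FGF and TGF-beta family ligands (63.6%) and 15 of 16 receptors (93.8%), and 19 of 20 semaphorins (95%) and 10 of 11 of their receptors (90.9%), beside 65.2% of all protein-coding genes. A wider median domain at receptors than at ligands was thus seen in each of the 3 families, and no test of it was made.

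**Figure D5:**
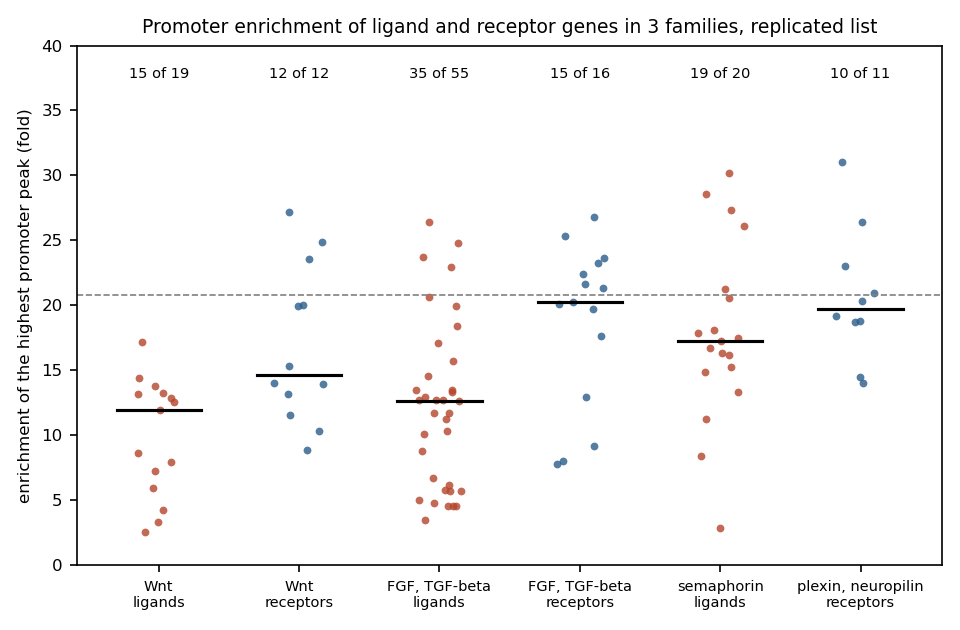
Enrichment (fold) of the highest promoter peak in the replicated list for marked ligand genes (red) and receptor genes (blue) of 3 signalling families; each point is a gene, bars are medians, the dashed line is the median of all marked genes at 20.8-fold, and the numbers give marked genes of all genes. Wnt ligands have the lowest median, 11.9-fold, and no point above the dashed line. The FGF and TGF-beta family ligands are those taken by symbol.

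The tissue label was checked against marker genes of cell types. The neuron genes Rbfox3, Snap25 and Slc17a7 were marked, with domains of 4804, 7951 and 7933 bases at 23.5-fold, 20.3-fold and 18.7-fold. All 6 neuron markers of the check were marked, at 6.91-fold to 28.7-fold. Of the hindbrain and thalamus markers, Hoxb3 was unmarked, and En1 and Gbx2 had 3.36-fold and 3.23-fold. Among glial markers, Slc1a2 of astrocytes had 20.0-fold and Mbp of oligodendrocytes 20.7-fold, whereas Aqp4 and Mog had 4.36-fold and 3.34-fold and Gfap was unmarked. Markers of other cells had 5.28-fold to 7.35-fold for 3 of 3 endothelial genes, 3.13-fold for 1 of 3 microglial genes, 6.30-fold for 1 of 3 fibroblast and meningeal genes and 6.57-fold for 1 of 3 choroid plexus genes. P2ry12, C1qa, Dcn, Lum, Ttr and Folr1 were unmarked in the replicated list, though P2ry12 had 3.37-fold in pool I. Neither Gbx2 nor the marked microglial gene had a promoter peak in the list of either pool. The lower ligands ran from Wnt10b at 2.52-fold to Wnt10a at 8.64-fold, and the part of other cell types in the values of the Wnt genes was not tested.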

How the data were processed

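H3K4me3 ChIP-seq of left cerebral cortex gave 4 libraries, which the labels place in 2 pools. The authors deposited peak lists on mm10, per the labels; both libraries of a pool entered 1 list, and the pooled-reads list served as an alternative. Aligner, caller and read numbers: not given in the sources used here. Depth is therefore unknown and no interval could be set. The deposited enrichment of a peak is a ratio, read here as fold over control, the kind of track that the text files deposited beside the lists name, and values of different lists stand side by side without comparison between pools. The deposited −log10 q values served as filters at 5 and 10. Positions are counted from 1.

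Gene models were GENCODE M21, without the mitochondrial genome. Peaks were matched to windows of 1000 bases, joined across gaps of up to 1000 bases, and measured with Python 3.11.15, numpy 2.4.6 and pysam 0.24.0; the steps were tested on simulated data. Windows of 500 and 2500 bases, the 5′-most start alone, no joining, gaps of 2500 bases, Frzb left out and shared domains left out were tried. Every member is named, with values in each list where marked. Of the other pathway genes, the members against their list's majority and the 2 widest of each list are named. Named in addition are Porcn, Celsr1, Kremen1, Kremen2, Lgr4, Lgr6, Reck and the marker genes. The members and lists were chosen with earlier results of these data known. Some marker genes are not reported here.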

Additional observations from a re-analysis of the deposited data

How the results depend on the processing

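The counts of marked ligands, receptors and inhibitors stayed within 1.5 times under every alternative run. Receptors had the wider median domain in 12 of 12 settings and the higher median enrichment in 10 of 10, the values above included. In the pool J list the median widths were 1289 bases for ligands, 3077 for receptors and 1951.5 for inhibitors, with a ligand enrichment of 9.82-fold. In the pool I list receptors had 3227 bases and 15.7-fold. At a −log10 q of at least 5 or 10 receptors had 3199 bases and inhibitors 2042. Without joining peaks the medians were 1218, 3183.5 and 1492.5 bases for ligands, receptors and inhibitors, and with gaps of 2500 bases they were 2239, 3604.5 and 2898.5. Inhibitors had 1559 bases both in the pooled-reads list and without Frzb. These shifts exceeded the spread between the pools. The joining step changes width by construction, and leaving out Frzb or gaining Dkk1 changes which inhibitors enter the median. At either q filter Fzd1, Fzd2 and Fzd7 had 3151, 3934 and 2684 bases, the same as without joining. The cause of the other shifts was not tested. Single calls changed for Wnt10b (lost at a −log10 q of 5 or 10, and in pool I), Wnt3 and Wnt16 (lost at 10), Wnt8b (gained with a window of 2500 bases) and Dkk1 (gained in the pooled-reads list, 375 bases at 2.10-fold). With 1 list per pool and unknown depth, an absent peak means none was called, not that the mark is absent. No paired analysis was possible because no result comes from a test. Leaving out a library was not run, since both libraries of a pool entered 1 list.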

Other observations

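Wide domains of low enrichment were common among the marked Wnt genes. Counting promoters above the 75th percentile of width and below the 25th percentile of enrichment of marked genes, limits chosen after the values were seen, gave 9 of 33 members (27.3%) in the replicated list, beside 423 of 14293 marked protein-coding genes (2.96%). They were the ligands Wnt5a and Wnt9a, the receptors Fzd2, Fzd5, Fzd6, Fzd8 and Fzd10, and the inhibitors Dkk2 and Dkk3. In pool J the count was 7 of 33 members (21.2%), beside 3.07% of marked genes, and in pool I it was 7 of 32 members (21.9%), beside 3.01%. Wnt5a, Wnt9a, Fzd2, Fzd5, Fzd8 and Dkk3 were counted in all 3 lists.

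Within the long Wnt5b gene lie the starts of Fbxl14, a ubiquitin ligase subunit gene. The 2 peaks there had 22.4-fold over 1077 bases and 25.8-fold over 3938 bases, above the 14.4-fold of the Wnt5b promoter itself.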
